A study of Mus musculus with 16 samples.

Results

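The Isg15 system and a set of antiviral effectors were followed as 10 genes, taken from the raw count table by exact gene symbol: Isg15, Usp18, Herc6, Bst2, Rsad2, Mx1, Mx2, Ifitm3, Isg20 and Cmpk2. These are 10 of the 54532 entries of the table, each symbol occurred once, and all 10 passed the filter on low counts. Bulk RNA was sequenced from brain of female mice at 9 months of age, in 16 libraries. Mice with Ch25h (+/+) and mice without it (-/-) were each sampled as Tau- and Tau+, which gives 4 groups of 4 libraries. Ch25h encodes cholesterol 25-hydroxylase, an interferon-induced enzyme that makes an oxysterol, and -/- marks animals without it. Tau+ is read as carrying a tau transgene, whose promoter and mutation the labels do not name. The sample labels name frontal cortex and the series text names hippocampus, and the cortex markers summed to 471 to 608 CPM (counts scaled to library size) against 25.6 to 67.9 CPM for the hippocampus markers.

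Type I interferons bind a receptor pair at the cell surface, whose signal drives genes with interferon-stimulated response elements in their promoters. Isg15 encodes a ubiquitin-like protein that is itself such a product. Uba7 activates it, Ube2l6 carries it, and Herc6 is the main ligase that joins it to other proteins in mice. Usp18 removes Isg15 from its targets and also damps signalling at the interferon receptor. The effectors act at different steps of infection: Ifitm3 hinders viral entry at endosomes, Bst2 (tetherin) holds budding particles at the cell surface, and Mx1 and Mx2 are dynamin-like GTPases. Rsad2 (viperin) makes a chain-terminating nucleotide, Cmpk2 is a mitochondrial nucleotide kinase that neighbours Rsad2, and Isg20 is an RNA exonuclease. In brain, microglia, endothelium and other cells at the borders are well-known sites of such expression.

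The upstream sequences of 5 genes are shown because they differ in the letters of the response element and include the neighbouring pair Rsad2 and Cmpk2. Sequences are from RefSeq (GRCm38.p6), which matched 7 of the 10 symbols, Isg20 with 3 start sites. Usp18, Mx1 and Mx2 had no entry. The 250 bases before each start were searched on both strands for the core of the element, GAAA and GAAA with any 2 bases between them, and the 150 bases nearest the start are printed on the gene's strand, with each match in capitals.
Isg15 (chr4:156200819-156200968, minus strand): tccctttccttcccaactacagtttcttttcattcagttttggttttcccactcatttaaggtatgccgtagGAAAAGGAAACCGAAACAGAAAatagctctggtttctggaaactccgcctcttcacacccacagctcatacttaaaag
Bst2 (chr8:71537473-71537622, minus strand): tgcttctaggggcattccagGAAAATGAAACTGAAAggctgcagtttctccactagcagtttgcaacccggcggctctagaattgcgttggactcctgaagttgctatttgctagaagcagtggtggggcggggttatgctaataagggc
Rsad2 (chr12:26456453-26456602, minus strand): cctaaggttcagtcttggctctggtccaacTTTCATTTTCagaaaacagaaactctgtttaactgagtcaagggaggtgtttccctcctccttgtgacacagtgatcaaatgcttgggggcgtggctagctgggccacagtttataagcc
Cmpk2 (chr12:26469065-26469214, plus strand): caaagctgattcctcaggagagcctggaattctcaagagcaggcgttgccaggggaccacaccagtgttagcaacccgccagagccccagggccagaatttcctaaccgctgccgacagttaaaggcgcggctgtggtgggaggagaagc
Herc6 (chr6:57580842-57580991, plus strand): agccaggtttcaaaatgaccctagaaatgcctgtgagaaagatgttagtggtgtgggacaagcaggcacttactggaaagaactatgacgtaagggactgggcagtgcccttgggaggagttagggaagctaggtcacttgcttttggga

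The core of the response element occurred in 3 of the 7 matched genes, Isg15, Bst2 and Rsad2, and in 3.46% of all 27025 genes, or 2.98% of all 32851 promoters, over windows of the same length. Isg15 held 3 overlapping matches from position -78 to -57, Bst2 held 2 overlapping matches from -130 to -115, and Rsad2 held 1 on the other strand from -120 to -111. A match is a description of letters, and windows without one (Cmpk2, Herc6, Ifitm3 and Isg20) say nothing about which factors act there.

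Gene positions are from GENCODE M21 (GRCm38). Isg15 lies on chromosome 4 (156199424 to 156200818), Usp18 (121245906 to 121270917) and Herc6 (57581000 to 57664632) on chromosome 6, Bst2 on chromosome 8 (71534255 to 71537456), and Ifitm3 (141009586 to 141010770) and Isg20 (78913424 to 78920396) on chromosome 7. Rsad2 and Cmpk2 lie 12.8 kb apart on opposite strands of chromosome 12, with no annotated gene between them. Mx1 and Mx2 lie 72.4 kb apart on chromosome 16, and the annotation lists Mx2 as a polymorphic pseudogene, since laboratory strains can carry defective Mx alleles. How the counting treated strand and shared reads is not given in the sources used here. Herc6 shares 13.7% of its exon bases with Gm45193 on the same strand, Usp18 shares 4.44% with Gm44148 on the opposite strand, and 63 of the 629 stretches of 50 bases in the Ifitm3 transcripts occur in other genes. For Mx1 and Mx2 that share was 4.37% and 4.38%, most of it between the pair, so their counts can exchange some reads. The share was 3.96% for Isg15 (with AC151275.1), 2.81% for Usp18 and 12.5% for Herc6, the last spread over 417 other genes. Bst2, Rsad2, Isg20 and Cmpk2 shared no such stretch.

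Libraries held 15530352 to 25602500 counts. Ch25h had 0 counts in all 8 Ch25h-/- libraries and was read in all 8 Ch25h+/+ libraries. Prnp, whose promoter drives some tau transgenes, was 748 to 839 CPM in Ch25h+/+ Tau- against 1505 to 1935 CPM in Ch25h+/+ Tau+, and 708 to 833 against 1414 to 1821 CPM in Ch25h-/-. A ribosomal RNA transcript took 2289 to 5684 CPM in 7 of the 8 Ch25h-/- libraries, set against total counts, and 111 to 475 CPM in the other 9 libraries, the rRNA-poor class, which holds all Ch25h+/+ libraries and Ch25h-/- Tau+ replicate 1. In contrasts of Ch25h genotype this class therefore moves almost wholly with genotype. CPM values below use TMM-scaled library sizes, the libraries are numbered in the order of their records, and p-values measure the spread between these libraries, which the labels do not state to be separate animals.

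Set against exon length, the level in Ch25h+/+ Tau+ was highest for Ifitm3, at 25.2 ± 6.18 CPM per kb of exon (SD, n = 4). Bst2 followed at 11.99 ± 3.61, Cmpk2 at 6.58 ± 0.644, Isg15 at 5.97 ± 4.31 and Herc6 at 1.502 ± 0.157. Lower still were Usp18 (1.28 ± 0.586), Rsad2 (0.857 ± 0.0797), Isg20 (0.644 ± 0.184), Mx2 (0.576 ± 0.166) and Mx1 (0.420 ± 0.149). Among neighbours in this order, the libraries of Ifitm3 and Bst2, of Bst2 and Cmpk2 and of Isg15 and Herc6 did not overlap, and the other 6 neighbouring pairs did. In Ch25h+/+ Tau- the order was the same except that Cmpk2 (5.34 ± 0.335 CPM per kb) stood above Bst2 (3.76 ± 1.07).

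**Figure D1:**
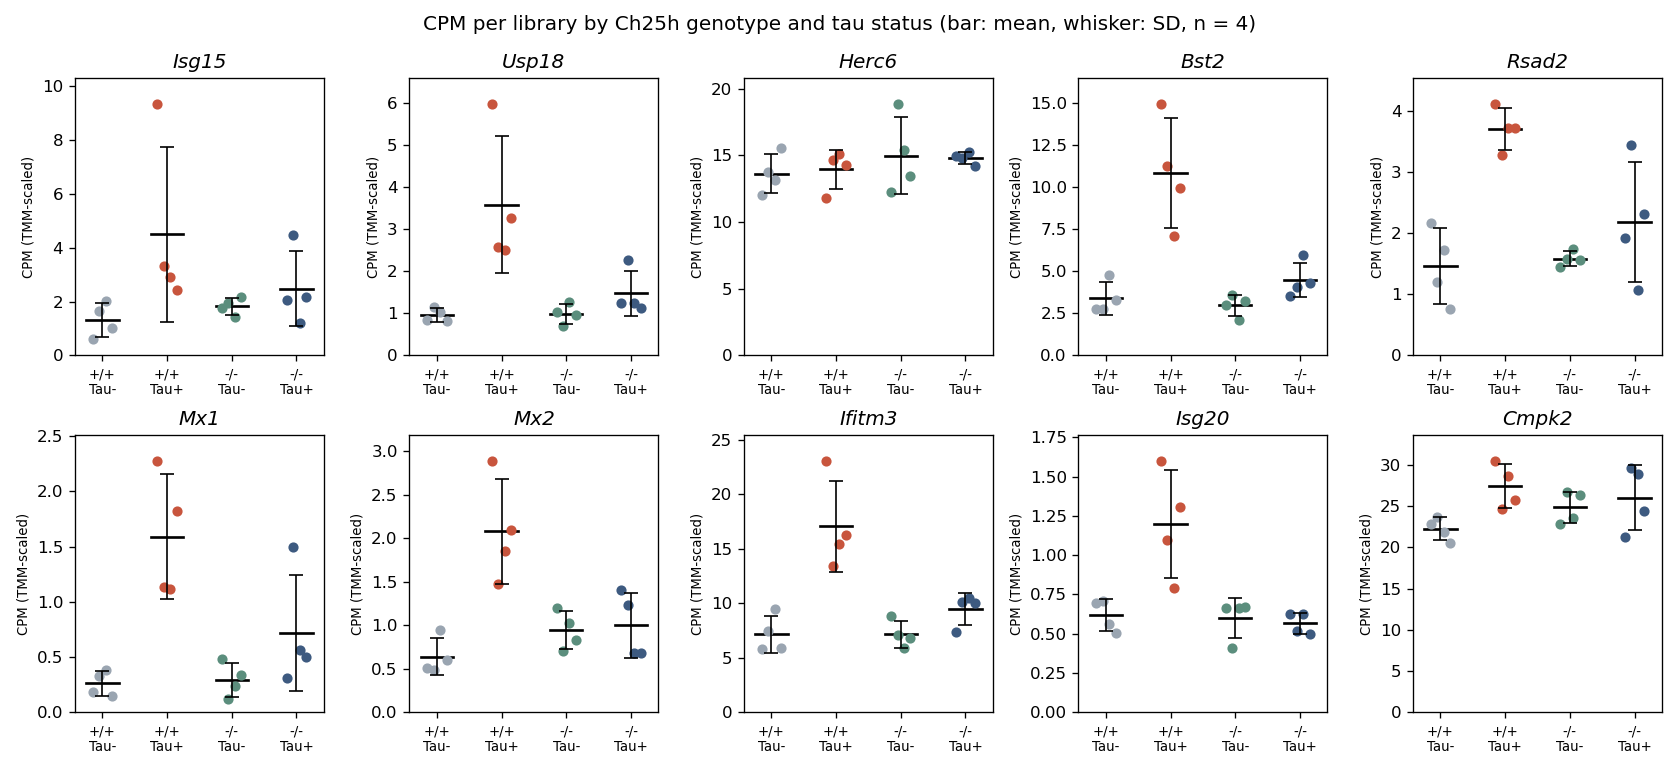
CPM of the 10 genes (vertical axis, linear from 0) in each library of the 4 groups, with a bar at the mean and a whisker for the SD (n = 4). The Ch25h+/+ Tau+ libraries of Bst2 lie at 7.11 to 14.97 CPM, above all other libraries, while the 4 groups of Herc6 overlap between 11.8 and 18.9 CPM.

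The tau effect where Ch25h is present was read as Ch25h+/+ Tau+ against Ch25h+/+ Tau-. Usp18, Bst2, Rsad2, Mx1, Mx2 and Ifitm3 rose, by 2.37-fold for Ifitm3 to 5.83-fold for Mx1. That is 6 of the 10 genes, against 1.47% of all 17736 genes tested that were called higher (edgeR quasi-likelihood test, Benjamini-Hochberg adjusted p under 0.05). None was called lower. In 9 of the 10, all but Herc6, every Tau+ library lay above every Tau- library, which held for 3.89% of all genes tested. The median log2 fold change over the 10 genes was 1.49, against -0.01 over all genes tested.

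Isg15, the modifier itself, had 0.601, 1.64, 2.03 and 1.01 CPM in the Ch25h+/+ Tau- libraries and 9.36, 3.32, 2.93 and 2.43 CPM in the Ch25h+/+ Tau+ libraries. The groups did not overlap, but replicate 1 of Tau+ stood far above the other 3. The log2 fold change was 1.75 (standard error 0.45) with an adjusted p of 0.0582 in the edgeR test, so Isg15 did not pass. Without Ch25h+/+ Tau+ replicate 1 its log2 fold change was 1.13 and its adjusted p in the edgeR test 0.196. It passed with DESeq2 (adjusted p 0.00370), which was among 6 of the 24 alternatives that took it past the threshold.

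Usp18, the protease that reverses the modification, had 0.832, 1.15, 1.04 and 0.806 CPM in Ch25h+/+ Tau- and 5.97, 2.57, 2.51 and 3.27 CPM in Ch25h+/+ Tau+. Again replicate 1 was the highest, and the lowest Tau+ library was still above every Tau- library. Usp18 rose by a log2 fold change of 1.89 (standard error 0.31, edgeR adjusted p 0.00185), or 3.70-fold. Herc6, the ligase, had 12.01, 13.8, 13.2 and 15.6 CPM in Tau- and 11.8, 14.6, 15.1 and 14.2 CPM in Tau+. Its groups overlapped, and its log2 fold change was 0.04 (standard error 0.12, edgeR adjusted p 0.988).

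Of the 3 conjugation partners, Uba7 (E1 enzyme) and Trim25 (a RING ligase reported to act with Isg15 and a target of it) rose, and Ube2l6 (E2 enzyme) did not pass. Uba7 was 4.51 ± 0.310 CPM in Ch25h+/+ Tau- and 7.47 ± 0.977 CPM in Ch25h+/+ Tau+ (SD, n = 4), with a log2 fold change of 0.73 (edgeR adjusted p 0.0133). Trim25 was 7.68 ± 1.38 and 13.1 ± 1.37 CPM (SD, n = 4), with a log2 fold change of 0.78 (edgeR adjusted p 0.00936). Ube2l6 was 4.84 ± 0.583 and 7.17 ± 1.87 CPM (SD, n = 4) with a log2 fold change of 0.56 (edgeR adjusted p 0.167).

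Among the effectors, Ifitm3, which acts at entry, had 5.78, 7.44, 9.49 and 5.94 CPM in Ch25h+/+ Tau- and 23.1, 13.5, 15.4 and 16.3 CPM in Ch25h+/+ Tau+. Bst2, which acts at release, had 2.77, 2.73, 4.79 and 3.27 CPM in Tau- and 14.97, 11.3, 7.11 and 9.94 CPM in Tau+. Neither gene overlapped between the groups. The log2 fold changes were 1.25 for Ifitm3 (standard error 0.19, edgeR adjusted p 0.00110) and 1.66 for Bst2 (standard error 0.24, edgeR adjusted p 0.000688), the latter the smallest p of the 10 genes.

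Mx1 had only 3 to 9 counts in a Ch25h+/+ Tau- library, or 0.185, 0.328, 0.388 and 0.151 CPM, and 2.28, 1.14, 1.12 and 1.82 CPM in Tau+. It rose by a log2 fold change of 2.54 (standard error 0.48, edgeR adjusted p 0.00682), and the low counts in Tau- make the size of this rise imprecise. Mx2 had 0.508, 0.492, 0.949 and 0.605 CPM in Tau- and 2.90, 1.47, 1.86 and 2.10 CPM in Tau+. No library of either Mx gene overlapped between the groups, and Mx2 rose by 1.67 on the log2 scale (standard error 0.32, edgeR adjusted p 0.00683).

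Among the nucleotide and RNA enzymes, Rsad2 had 2.17, 1.20, 1.73 and 0.756 CPM in Ch25h+/+ Tau- and 4.13, 3.28, 3.72 and 3.74 CPM in Ch25h+/+ Tau+. Its Tau+ libraries were the tightest of those genes that rose, with an SD of 0.346 CPM, and its Tau- libraries were more scattered (SD 0.616 CPM). Rsad2 rose by a log2 fold change of 1.33 (standard error 0.30, edgeR adjusted p 0.0241). It no longer passed (edgeR adjusted p up to 0.0871) in 5 of the 16 refits with a library removed, namely without Ch25h+/+ Tau- replicate 2 or 4 or Ch25h+/+ Tau+ replicate 1, 3 or 4.

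Cmpk2, the neighbour of Rsad2, had 22.9, 23.7, 21.8 and 20.5 CPM in Ch25h+/+ Tau- and 30.5, 24.7, 28.7 and 25.7 CPM in Ch25h+/+ Tau+. The groups did not overlap, yet the difference was small, with a log2 fold change of 0.30 (standard error 0.11, edgeR adjusted p 0.272). Isg20 had 0.693, 0.711, 0.561 and 0.504 CPM in Tau- and 1.602, 1.09, 0.790 and 1.31 CPM in Tau+, again without overlap. Its log2 fold change was 0.94 (standard error 0.28, edgeR adjusted p 0.136), so it did not pass either. Of the 10 genes, Herc6 and Cmpk2 had the smallest log2 fold changes, each at 192 or more counts in every library.

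Wider lists show which neighbours of the pathway moved in the same contrast. Of 31 other antiviral effectors, 30 were tested and 14 rose, with Lgals3bp (15.2 ± 4.30 to 47.9 ± 8.74 CPM, SD, n = 4), Parp14 (2.77 ± 0.573 to 7.55 ± 0.608), Apobec3 (2.58 ± 0.358 to 5.14 ± 0.585) and Lgals9 (4.96 ± 0.8287 to 9.49 ± 0.816) having the smallest p. None fell, and the median log2 fold change of the list was 0.78. Of 15 interferon signalling genes 2 rose and none fell, among them Irf7, a factor that amplifies the interferon response, from 2.17 ± 0.551 to 7.53 ± 2.65 CPM (SD, n = 4). None of 13 constitutive relatives, such as Uba1, Ube2l3, Cmpk1 and the dynamins, was called, none had an unadjusted p under 0.05 (edgeR), and their log2 fold changes ran from -0.06 to 0.17. The interferon genes themselves were barely read: of 21, 15 had 0 counts in all 16 libraries and the others had at most 2 counts over all libraries. A count of 0 allows up to 3 counts in a library, or 0.117 to 0.195 CPM, a limit that covers counting error only.

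Marker levels of other cell types are given beside this contrast. The 7 microglia markers summed to 280 to 303 CPM in Ch25h+/+ Tau- and 352 to 453 CPM in Ch25h+/+ Tau+, and 3 of the 7 rose. The 5 mural cell markers summed to 149 to 196 and 223 to 248 CPM, and 1 of the 5 rose. The 7 endothelial markers summed to 231 to 267 and 271 to 318 CPM, and none was called. The 6 meningeal fibroblast markers (50.2 to 92.9 and 78.6 to 158 CPM, median log2 fold change 0.64) and the 5 border macrophage markers (5.09 to 13.1 and 10.04 to 19.0 CPM, median 0.64) overlapped between the groups, and none was called, beside a median of 0.50 for the microglia markers. The 5 T and NK cell markers summed to 0.151 to 0.547 CPM and 0.604 to 1.12 CPM, too low to be tested. The 9 choroid plexus markers varied widely within both groups, from 17.6 to 1461 CPM in Tau- and from 37.5 to 2372 CPM in Tau+. Their median log2 fold change was 0.37, and none was called. In bulk tissue, fewer cells of a type and less RNA per cell cannot be told apart, and the part of these cell types in the changes was not tested. Ch25h+/+ Tau+ replicate 1 had the highest value of its group for 9 of the 10 genes, all but Herc6. It also had the highest sums of its group for meningeal fibroblast (158 CPM), border macrophage (19.0 CPM) and monocyte and neutrophil markers (2.03 CPM). It had the lowest for microglia (352 CPM), endothelium (271 CPM), astrocytes (766 CPM), neurons (5814 CPM) and oligodendrocytes (2138 CPM). The same held for cortex (509 CPM), hippocampus (29.6 CPM) and striatum (153 CPM), while its mural cell sum (247.6 CPM) was close to that of replicate 3 (247.5 CPM).

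The tau effect where Ch25h is absent was read as Ch25h-/- Tau+ against Ch25h-/- Tau-. None of the 10 genes passed (edgeR quasi-likelihood test, Benjamini-Hochberg), against 0.0282% of all genes tested that were called higher. DESeq2 and limma-voom also called 0 of the 10. At an unadjusted p under 0.05, 2 of the 10 were higher, Bst2 and Mx1, against 1.9% of all genes tested. No gene had all Tau+ libraries above all Tau- libraries, where 1.14% of all genes did. The median log2 fold change over the 10 genes was 0.41, against 0.01 over all genes tested. The 9 choroid plexus markers summed to 48.9 to 1674 CPM in Tau- and 58.6 to 2849 CPM in Tau+ (median log2 fold change 1.40). The 7 microglia markers summed to 280 to 309 and 280 to 337 CPM (median 0.06). No marker of either list was called, and the part of these cell types was not tested.

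**Figure D2:**
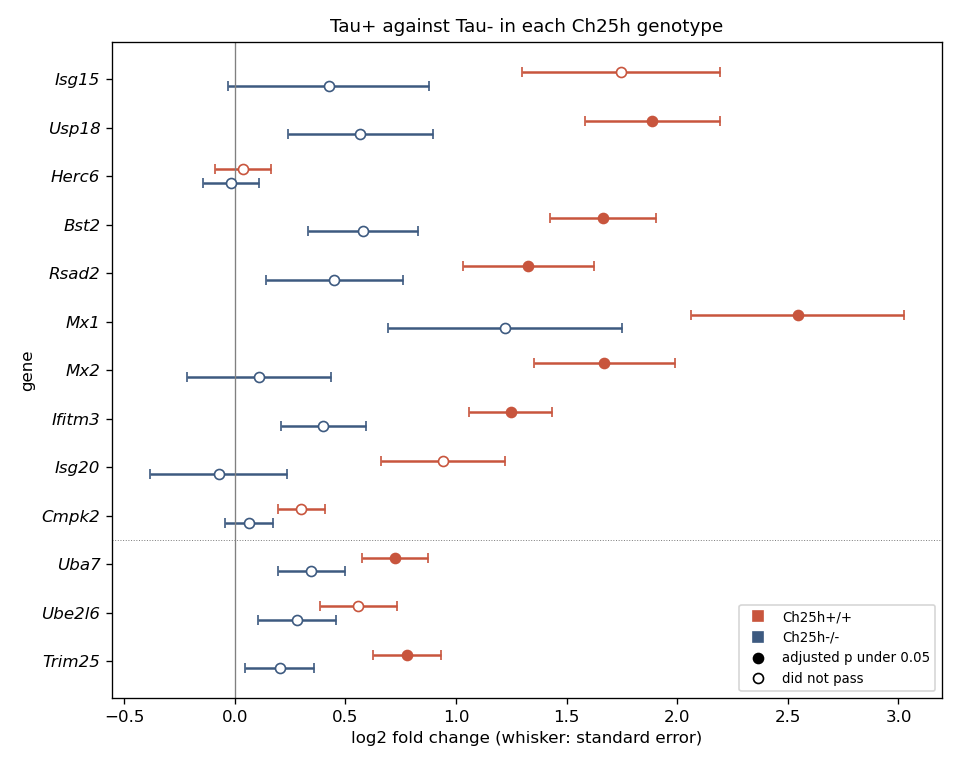
Log2 fold change of Tau+ against Tau- (horizontal axis, whisker: standard error) for the 10 genes and, under the dotted line, 3 conjugation partners, in Ch25h+/+ and in Ch25h-/-. Filled points passed an adjusted p of 0.05, which 6 of the 10 genes did in Ch25h+/+ and 0 in Ch25h-/-, and Herc6 lies near 0 in both genotypes.

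Isg15 had 1.75, 1.94, 1.45 and 2.18 CPM in Ch25h-/- Tau- and 2.07, 4.48, 1.19 and 2.19 CPM in Ch25h-/- Tau+. Replicate 2 was the highest Tau+ library and replicate 3 fell below every Tau- library. The log2 fold change was 0.42 (standard error 0.45), and -0.01 without Ch25h-/- Tau+ replicate 2. Usp18 had 1.02, 0.706, 1.27 and 0.948 CPM in Tau- and 1.25, 2.27, 1.25 and 1.12 CPM in Tau+, where replicate 2 alone stood clear of the Tau- libraries. Its log2 fold change was 0.57 (standard error 0.33), and ran from 0.29 to 0.70 with a library left out. Herc6 had 12.2, 18.9, 15.4 and 13.4 CPM in Tau- and 14.98, 14.8, 15.3 and 14.2 CPM in Tau+, and its log2 fold change was -0.02 (standard error 0.13).

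Ifitm3 had 8.85, 7.06, 5.91 and 6.86 CPM in Ch25h-/- Tau- and 7.36, 10.1, 10.5 and 10.1 CPM in Ch25h-/- Tau+. Bst2 had 3.01, 3.59, 2.11 and 3.23 CPM in Tau- and 3.56, 4.09, 5.97 and 4.31 CPM in Tau+. In both genes 3 of the 4 Tau+ libraries lay above all Tau- libraries and replicate 1 did not. The log2 fold changes were 0.40 for Ifitm3 (standard error 0.19) and 0.58 for Bst2 (standard error 0.25). Ch25h-/- Tau+ replicate 1 is the rRNA-poor library of its group. Over the 16 fits that each left out a library, the log2 fold change ran from 0.31 to 0.51 for Ifitm3 and from 0.40 to 0.67 for Bst2.

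The Mx genes were low in both Ch25h-/- groups. Mx1 had 0.482, 0.118, 0.241 and 0.335 CPM in Tau- and 0.313, 1.49, 0.568 and 0.4996 CPM in Tau+, with replicate 2 the highest again. Its log2 fold change of 1.22 was the largest of the 10 genes, with a standard error of 0.53, and was 0.60 without Ch25h-/- Tau+ replicate 2. Mx2 had 1.20, 0.706, 1.02 and 0.837 CPM in Tau- and 1.41, 1.23, 0.682 and 0.687 CPM in Tau+, so the groups overlapped widely, with a log2 fold change of 0.11 (standard error 0.33).

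Rsad2 had 1.45, 1.59, 1.75 and 1.56 CPM in Ch25h-/- Tau- and 1.92, 3.44, 1.08 and 2.31 CPM in Ch25h-/- Tau+. The Tau- libraries were close together and the Tau+ libraries spread to both sides of them, with a log2 fold change of 0.45 (standard error 0.31), or 0.15 without Ch25h-/- Tau+ replicate 2. Cmpk2 had 22.8, 26.6, 23.5 and 26.3 CPM in Tau- and 21.3, 29.6, 28.8 and 24.4 CPM in Tau+ (log2 fold change 0.06, standard error 0.11). Isg20 had 0.663, 0.412, 0.663 and 0.669 CPM in Tau- and 0.626, 0.520, 0.625 and 0.4996 CPM in Tau+, at 7 to 16 counts a library. Its log2 fold change was -0.07 (standard error 0.31), and the 2 groups overlapped. Of the 30 other antiviral effectors tested, 0 were called and 3 were higher at an unadjusted p under 0.05 in the edgeR test.

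The interaction term tested the difference between the tau effects of both genotypes. None of the 10 genes passed (edgeR quasi-likelihood test, Benjamini-Hochberg), against 0.0338% of all genes tested that were called lower, and DESeq2 and limma-voom also called 0 of the 10. All 10 log2 differences were below 0, from -1.56 for Mx2 to -0.05 for Herc6, with a median of -1.05 against 0.02 over all genes tested. At an unadjusted p under 0.05, 5 of the 10 were lower (Usp18, Bst2, Mx2, Ifitm3 and Isg20), against 2.94% of all genes tested. The 5 log2 differences were -1.32 for Usp18 (standard error 0.45), -1.08 for Bst2 (0.34), -1.56 for Mx2 (0.46), -0.85 for Ifitm3 (0.27) and -1.01 for Isg20 (0.42). Isg15 itself differed by -1.32 with a standard error of 0.64, and by -0.72 without Ch25h+/+ Tau+ replicate 1. Mx1 differed by -1.32 (standard error 0.74), and by -1.95 without Ch25h-/- Tau+ replicate 2.

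Ch25h loss beside the transgene was read as Ch25h-/- Tau+ against Ch25h+/+ Tau+, which shares its Ch25h+/+ Tau+ libraries with the tau effect in Ch25h+/+. Usp18, Bst2 and Ifitm3 fell, to 0.413, 0.414 and 0.556 of the level with Ch25h. That is 3 of the 10 genes, against 2.4% of all genes tested that were called lower (edgeR quasi-likelihood test, Benjamini-Hochberg). In 5 of the 10 (Usp18, Bst2, Mx2, Ifitm3 and Isg20) every Ch25h-/- library lay below every Ch25h+/+ library, against 5.74% of all genes tested. The median log2 fold change over the 10 genes was -0.94, against 0.00 over all genes tested.

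**Figure D3:**
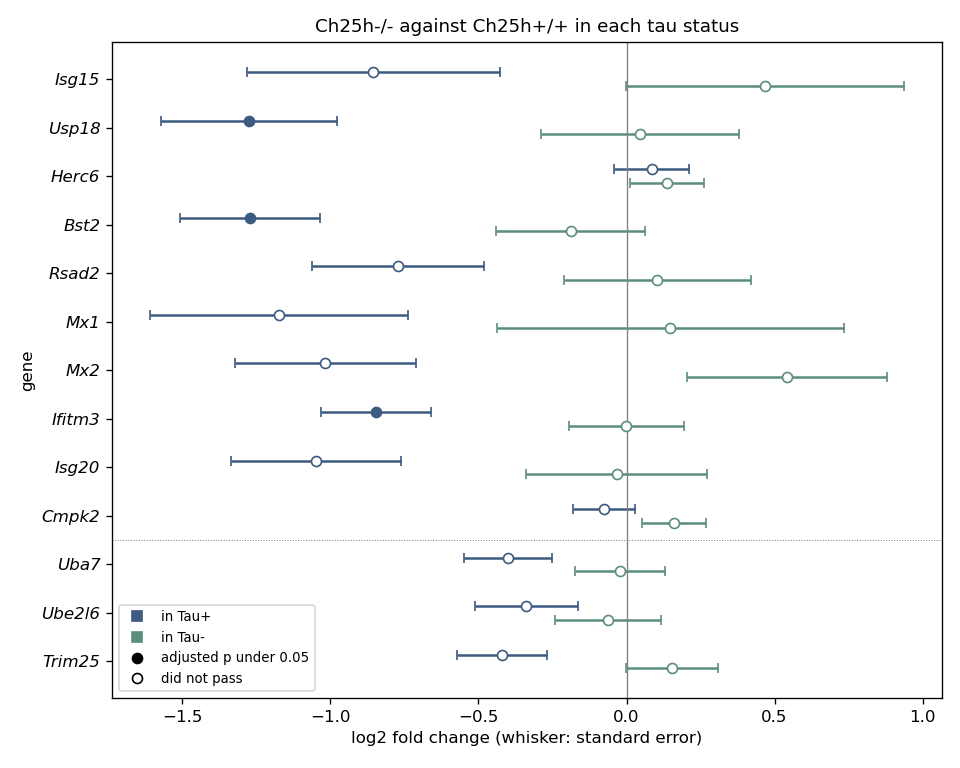
Log2 fold change of Ch25h-/- against Ch25h+/+ (horizontal axis, whisker: standard error) for the 10 genes and, under the dotted line, 3 conjugation partners, in Tau+ and in Tau-. In Tau+ the 3 filled points (Usp18, Bst2 and Ifitm3) passed an adjusted p of 0.05, and in Tau- no point did.

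From the library values given above, Bst2 was 10.8 ± 3.26 CPM in Ch25h+/+ Tau+ and 4.48 ± 1.04 CPM in Ch25h-/- Tau+ (SD, n = 4). Its log2 fold change was -1.27 (standard error 0.24, edgeR adjusted p 0.00863), and the call held in all 16 fits that each left out a library. Ifitm3 was 17.1 ± 4.19 and 9.50 ± 1.44 CPM (SD, n = 4), with a log2 fold change of -0.85 (standard error 0.19, edgeR adjusted p 0.0244). Usp18 was 3.58 ± 1.63 and 1.48 ± 0.536 CPM (SD, n = 4), with a log2 fold change of -1.28 (standard error 0.30, edgeR adjusted p 0.0297). The Ifitm3 and Usp18 calls were each lost when the fit held only the 8 libraries compared, and without Ch25h+/+ Tau+ replicate 1 or 4 or Ch25h-/- Tau+ replicate 3 or 4.

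The other 7 genes did not pass in Tau+. Isg20 was 1.20 ± 0.342 CPM in Ch25h+/+ Tau+ and 0.568 ± 0.0674 CPM in Ch25h-/- Tau+ (SD, n = 4), a difference of -1.05 on the log2 scale (edgeR adjusted p 0.0506). Mx2 was 2.08 ± 0.601 and 1.003 ± 0.375 CPM (log2 fold change -1.02, edgeR adjusted p 0.0669). Both lay close to the threshold, and limma-voom with quality weights took both past it. Mx1 was 1.59 ± 0.565 and 0.719 ± 0.528 CPM (log2 fold change -1.17, edgeR adjusted p 0.117), and passed at -1.81 (edgeR adjusted p 0.0486) without Ch25h-/- Tau+ replicate 2. Rsad2 was 3.72 ± 0.346 and 2.19 ± 0.982 CPM (log2 fold change -0.77, edgeR adjusted p 0.121). Isg15 was 4.51 ± 3.26 and 2.48 ± 1.40 CPM (SD, n = 4). Its difference was -0.86 on the log2 scale (standard error 0.43, edgeR adjusted p 0.233). With a library left out it ran from -1.30 to -0.24, the latter without Ch25h+/+ Tau+ replicate 1. Cmpk2 (log2 fold change -0.08) and Herc6 (0.08) differed by less than their standard errors of 0.11 and 0.13.

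The rRNA class moves with this contrast, and all Ch25h+/+ libraries are rRNA-poor. Within the rRNA-poor class the contrast rests on Ch25h-/- Tau+ replicate 1 alone, so class and genotype cannot be told apart by a replicated test. A fit with the class as a covariate sets that same library against the 4 Ch25h+/+ Tau+ libraries, and 0 of the 10 genes passed in it. Its log2 differences, which are those of 1 library, were -1.60 for Bst2, -1.21 for Ifitm3, -1.50 for Usp18, -0.55 for Mx2 and -0.92 for Isg20. By its CPM values in the same library, 9 of the 10 genes, all but Herc6, lay below all 4 Ch25h+/+ Tau+ libraries, against 17.5% of all genes tested.

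Of the 3 conjugation partners none passed in Tau+, and at an unadjusted p under 0.05 in the edgeR test 2 were lower, Uba7 and Trim25, against 12.3% of all genes tested. Of the 30 other antiviral effectors tested, 7 fell, with Lgals3bp (47.9 ± 8.74 to 22.8 ± 4.06 CPM, SD, n = 4), Ifi27 (40.7 ± 11.97 to 24.9 ± 1.17), Apobec3 (5.14 ± 0.585 to 3.10 ± 0.638) and Parp14 (7.55 ± 0.608 to 4.47 ± 0.680) having the smallest p. Of the 15 interferon signalling genes 4 fell: Ifnar2, a chain of the type I receptor (16.8 ± 1.59 to 12.6 ± 0.369 CPM), Ifngr1, a chain of the interferon gamma receptor (17.0 ± 1.52 to 12.99 ± 1.22), Irf1 (10.2 ± 1.32 to 7.17 ± 0.797) and Irf7 (7.53 ± 2.65 to 3.39 ± 1.83). None of either list rose. The microglia markers summed to 280 to 337 CPM in Ch25h-/- Tau+ against 352 to 453 CPM in Ch25h+/+ Tau+, with 4 of the 7 lower, and the mural cell markers to 185 to 215 against 223 to 248 CPM, with 1 of the 5 lower. The meningeal fibroblast markers summed to 79.98 to 97.2 against 78.6 to 158 CPM and the border macrophage markers to 7.56 to 13.6 against 10.04 to 19.0 CPM, and none was called. The T and NK cell markers summed to 0.0568 to 0.260 against 0.604 to 1.12 CPM, without overlap, and were too low to be tested. The part of these cell types was not tested.

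Ch25h loss without the transgene was read as Ch25h-/- Tau- against Ch25h+/+ Tau-. None of the 10 genes passed (edgeR quasi-likelihood test, Benjamini-Hochberg), against 1.03% of all genes tested that were called in either direction, and none had an unadjusted p under 0.05. DESeq2 and limma-voom also called 0 of the 10, while calling 967 and 1388 genes in all. At an unadjusted p under 0.05, 9.55% of all genes tested were higher and 11.3% lower. The libraries of each of the 10 genes overlapped between the groups, while 7.64% of all genes tested were higher and 8.58% lower with no overlap. The log2 fold changes ran from -0.19 for Bst2 (standard error 0.25) to 0.54 for Mx2 (standard error 0.34). Ifitm3 was 7.16 ± 1.72 CPM with Ch25h and 7.17 ± 1.23 CPM without it (SD, n = 4), and Usp18 was 0.955 ± 0.165 and 0.986 ± 0.231 CPM. None of the 30 other antiviral effectors, 15 interferon signalling genes and 3 conjugation partners tested was called by edgeR. At an unadjusted p under 0.05, 4 effectors were higher and 1 lower, 1 signalling gene was lower, and no partner passed. Ifnar2, which fell in Tau+, was also lower here without overlap, at 12.8 to 14.8 CPM with Ch25h and 10.4 to 12.5 CPM without it (log2 fold change -0.29, edgeR adjusted p 0.108), and its interaction was -0.13 (standard error 0.14). Here all 4 Ch25h-/- libraries are rRNA-rich and no Ch25h+/+ library is, so class and genotype cannot be told apart. The difference of this contrast from Ch25h loss in Tau+ is the interaction given above, which no gene of the 10 passed.

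Over the 16 libraries the Pearson correlation of log2(CPM + 0.5) between pairs of the 10 had a median of 0.753 over 45 pairs, from -0.469 between Herc6 and Isg20 to 0.951 between Usp18 and Mx1. Every pair below 0 included Herc6, and all pairs without it were positive, from 0.357 between Isg20 and Cmpk2 upwards. With the group means removed the median was 0.339, and pairs without Herc6 also reached below 0, such as Bst2 and Rsad2 (-0.18) and Mx2 and Cmpk2 (-0.14). These values describe libraries that share groups and depth, and are given with no test.

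Among all other genes tested, the 5 with the most similar pattern to Isg15 over the 16 libraries were Ube2l6 (Pearson r 0.916), Ifi44 (0.915), Prkra (0.900), Ifit3 (0.899) and Oasl2 (0.872). Ube2l6 is the conjugating enzyme for Isg15. Its correlation was 0.850 without the 2 libraries farthest from the median of Isg15 (Ch25h+/+ Tau+ replicate 1 and Ch25h+/+ Tau- replicate 1), and 0.917 with the group means removed. The other 9 genes of the set ranked lower, from Usp18 (r 0.831, rank 13 of 17735) to Herc6 (r -0.158, rank 11690). Their order depended on the 2 libraries left out above: without them r was 0.879 for Rsad2, from 0.725, which is above Ube2l6, and 0.677 for Usp18. Ifit3, another interferon-induced effector, had 5.53 ± 1.74, 20.7 ± 8.37, 6.03 ± 0.998 and 8.68 ± 3.98 CPM (SD, n = 4), the first pair being Tau- and Tau+ with Ch25h and the second pair Tau- and Tau+ without it.

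**Figure D4:**
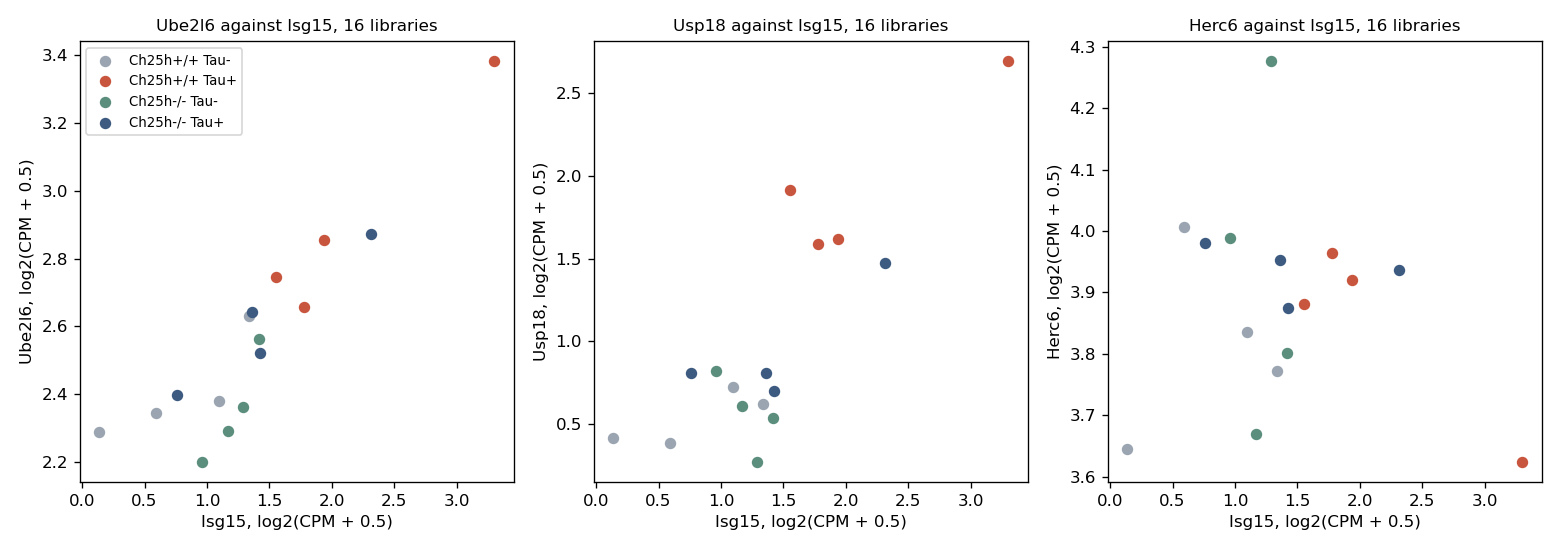
Level of Ube2l6, Usp18 and Herc6 (vertical axes) against that of Isg15 (horizontal axis), all as log2(CPM + 0.5), with 1 point per library coloured by group. Ube2l6 rises along with Isg15 over the 16 libraries (r 0.916), Usp18 less closely (r 0.831), and Herc6 shows no such pattern (r -0.158).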

How the data were processed

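The authors deposited a table of raw counts per gene for 16 bulk RNA libraries, and the submitters' processing notes name STAR 2.7 and the GRCm38 (mm10) build. The counting program and its use of strand are not given in the sources used here. Libraries were assigned to the 4 groups from the sample labels. From the counts, 17736 genes passed edgeR's filter (filterByExpr over the 4 groups), and 1 quasi-likelihood model with TMM scaling was fitted to all 16 libraries with a mean per group (edgeR 4.0.16, R 4.3.3). Tests were two-sided, with Benjamini-Hochberg adjustment over all genes tested and a threshold of 0.05, and the standard error was taken from the F statistic. Alternatives used DESeq2 1.42.0, limma 3.58.1 and sva 3.50.0. The rRNA-rich class was set at 1000 CPM or more of CT010467.1. The fit was tested on simulated data for the tau effect in Ch25h+/+ (17429 genes), where 77% of 100 genes changed by 1 on the log2 scale and 93.9% of 98 changed by 2 were recovered. In the same run 9 unchanged genes were called. The changed genes were drawn at random, so these shares do not describe genes at low counts such as Mx1, Mx2 and Isg20. All 10 genes and the 3 conjugation partners were named. Of the other lists, up to 4 genes per comparison with the smallest adjusted p were named, except 1 interferon signalling gene in the tau effect in Ch25h+/+, which is not reported here. The 5 genes most like Isg15 by Pearson correlation were also named. The genes and lists were chosen with earlier results of these data known.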

Additional observations from a re-analysis of the deposited data

Results flagged for a closer look

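Each group of 4 libraries of each gene was searched for a library far from the other 3, by Dixon's criterion, and 4 of the 40 sets held such a library, where chance gives about 1 in 20. Isg15 stood at 9.36 CPM in Ch25h+/+ Tau+ replicate 1, and the next library of that group was at 3.32 CPM. Usp18 stood at 2.27 CPM in Ch25h-/- Tau+ replicate 2, with the next at 1.25 CPM. Ifitm3 was low in Ch25h-/- Tau+ replicate 1, at 7.36 CPM with the next at 10.1 CPM, in the rRNA-poor library of that group. Isg20 was low in Ch25h-/- Tau- replicate 2, at 0.412 CPM with the next at 0.663 CPM, from 7 counts.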

How the results depend on the processing

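Usp18, Bst2, Mx1, Mx2 and Ifitm3 kept their rise with tau in Ch25h+/+ under every alternative that tested them. Of 1208 recomputed values of the 10 genes, 1135 kept direction and side of the threshold, 18 lost the call, 16 gained it and 39 changed sign, 0 of these past the threshold and 29 in Ch25h loss in Tau-. The cause of these changes was not tested, except that fewer genes or libraries enter some fits. No paired analysis was possible because the replicate numbers follow the record order and tie no libraries across groups. The class covariate differs within Ch25h-/- Tau+ only, so with it Ch25h loss in either tau state rests on replicate 1 of that group, and the tau effect in Ch25h-/- on the others. Low counts limit Mx1, Mx2, Isg20 and Usp18 most.

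Of the 10 genes, those called for tau in Ch25h+/+ (6) numbered 2 with a mean of at least 50 counts, where 4 were tested, and 5 to 7 with a library left out. Those called for Ch25h loss in Tau+ (3) numbered 5 with limma-voom, 0 with the library class covariate, 1 with only the libraries compared, and 1 to 5 with a library left out. Genes called for tau in Ch25h+/+ (277) numbered 424 with DESeq2, 498 with limma-voom and 160 to 299 with a library left out. For tau in Ch25h-/- (7) they numbered 28 without the filter, 2 with a mean of at least 50 counts, 14 with DESeq2 and 6 to 13 with a library left out. For Ch25h loss in Tau+ (629) they numbered 1397 with DESeq2, 1883 with limma-voom, 10 with the class covariate, 106 with only the libraries compared and 108 to 1691 with a library left out. For Ch25h loss in Tau- (182) they numbered 522 without the filter, 967 with DESeq2, 1388 with limma-voom, 0 with the class covariate, 1229 with only the libraries compared and 3 to 1306 with a library left out. For the interaction (6) they numbered 57 without the filter, 55 with DESeq2, 11 with 1 surrogate variable, 3 with the class covariate, 11 with the choroid plexus score and 0 to 22 with a library left out.

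Sign changes with the class covariate were, in Ch25h loss in Tau-, Usp18 -0.25, Rsad2 -0.13, Mx1 -1.27, Isg20 0.15 and Cmpk2 -0.21, and for tau in Ch25h-/- Mx2 -0.12. In Ch25h loss in Tau-, Usp18 was also -0.0394 with limma-voom, -0.0398 with 1 surrogate variable and -0.0307 with the choroid plexus score, Mx1 was -0.0673 with limma-voom, and Ifitm3 was 0.00127 with RLE size factors, 0.00123 with DESeq2 and 0.0215 with a mean of at least 50 counts. With a library left out, the log2 fold change for tau in Ch25h+/+ ran from -0.0145 to 0.112 for Herc6. For tau in Ch25h-/- it ran from -0.0118 to 0.645 for Isg15, -0.108 to 0.111 for Herc6, -0.132 to 0.249 for Mx2 and -0.00856 to 0.145 for Cmpk2. For Ch25h loss in Tau- it ran from -0.0932 to 0.172 for Usp18, -0.290 to 0.0273 for Bst2, -0.109 to 0.353 for Rsad2, -0.178 to 0.412 for Mx1, -0.114 to 0.166 for Ifitm3 and -0.117 to 0.106 for Isg20. For the interaction it ran from -0.150 to 0.0680 for Herc6.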

Other observations

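Prkra, which encodes an activator of the kinase PKR, was among the 5 genes most like Isg15 over the 16 libraries. It was 11.2 ± 0.667 CPM in Ch25h+/+ Tau- and 14.1 ± 2.04 CPM in Ch25h+/+ Tau+ (SD, n = 4). Its Pearson correlation with Isg15 was 0.900, 0.866 with the group means removed and 0.813 without the 2 libraries farthest from the median of Isg15. These are descriptions over libraries that share groups, with no test.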
